A study of Homo sapiens with 16 samples.

Results

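T-47D cells treated with 17β-estradiol (E2) for 4 h were compared with T-47D cells at 0 h. The libraries were chosen by the line and hour written in their sample labels, which gave 2 libraries at 4 h and 2 at 0 h, 4 of the 16 RNA-seq libraries of the series. T-47D is an established human cell line from a ductal carcinoma of the breast. The series treated this line and an endometrial line with E2 at 10 nM and sampled them from 0 to 8 h, to study when and how strongly genes respond to the hormone. All 8 T-47D libraries, those at 0 h included, came from cells kept before treatment in medium without phenol red and with charcoal-stripped serum, which removes most steroid hormone, for 3 days by the labels and for a different time by the study's methods. The labels give the 0 h samples the name of the hormone with a time of 0 h, and the study describes them as vehicle-treated controls. Both groups are samples of a single cell line, nothing in the sources used here says that the replicates were separate cultures, and p-values therefore measure only the spread between these samples.

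E2 enters cells and binds estrogen receptor α (ERα, encoded by ESR1), a transcription factor of the nuclear receptor family. The bound receptor associates with DNA, often at a short palindrome called the estrogen response element, and recruits coactivators or corepressors that raise or lower transcription of nearby genes. In breast cancer cells the hormone is known as a mitogen, and the progesterone receptor gene PGR, GREB1, TFF1, MYC and CXCL12 are among the genes classically used to follow it.

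The 0 h libraries held 44488088 and 41223813 counts and the 4 h libraries 64148903 and 51653748, so the treated libraries were the deeper ones. Levels are given as CPM, the counts of a gene scaled to a common library size, after TMM scaling, whose factors lay between 0.992 and 1.005 in the 8 T-47D libraries. Replicates differed by more than counting noise at every time point, with a chi-square per gene of 4.77 to 8.98. On the first principal component, which held 36.5% of the variance of log2 CPM, the 0 h libraries lay at -30.3 and -34.7 and the 4 h libraries at 11.4 and 11.7. The 4 h pair thus sat together, between the 2 h libraries at 0.44 and -0.66 and the 8 h libraries at 19.9 and 22.2.

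The libraries carried the genes that define luminal breast cells. All 16 luminal markers examined were above 1 CPM, ESR1 among them at 166 and 163 CPM at 0 h and 182 and 193 CPM at 4 h. Their summed level was 19960 and 19400 CPM at 0 h and 23100 and 23120 CPM at 4 h, with 7 members higher, 5 lower and 4 that did not pass the test described below. Markers of other cell types summed to far less. The 12 basal and myoepithelial markers summed to 177 and 188 CPM at 0 h and 152 and 148 CPM at 4 h, mostly from the cadherin CDH3 at 113 and 121 CPM and then 95.2 and 92.8 CPM, while the defining basal keratins KRT5 and KRT14 had 1 to 6 counts in each of the 4 libraries. The 12 fibroblast markers summed to 94.5 and 103 CPM at 0 h and 85.2 and 91.8 CPM at 4 h, most of it COL1A1, and PDGFRA and POSTN had 0 counts. The 10 endothelial markers summed to between 3.94 and 5.49 CPM, with CDH5, KDR, TEK, TIE1, EMCN and ERG at 0 in these 4 libraries, and the 12 leukocyte markers to between 4.92 and 6.01 CPM. Of the markers of other cell types, CDH3 and MYLK passed the test, both lower at 4 h (-0.31 and -0.70 on the log2 scale).

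After 4 h of E2, a large part of the measured transcriptome had moved, mostly by small amounts. Of 15594 genes tested with edgeR's quasi-likelihood test, 1727 rose (11.1%) and 1628 fell (10.4%) at an adjusted p (Benjamini-Hochberg) under 0.05. These percentages are the background against which the counts of every gene group below are read. The increases were the larger ones. Their median was 0.32 on the log2 scale and 189 of them exceeded 1, a change by a factor of 2, whereas the decreases had a median of -0.28 and 58 of them exceeded 1 in size. Beyond a log2 fold change of 3 in size there were 29 increases and 2 decreases. The median over all genes tested was -0.0046. The genes that fell were the more abundant, with a median of 55.2 CPM against 39.2 CPM for the genes that rose and 20.9 CPM for all genes tested. Among the genes called, 46 that rose and 41 that fell were annotated as long noncoding RNAs. How many such RNAs were tested is not given here, so these counts cannot be read against the background.

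**Figure D1:**
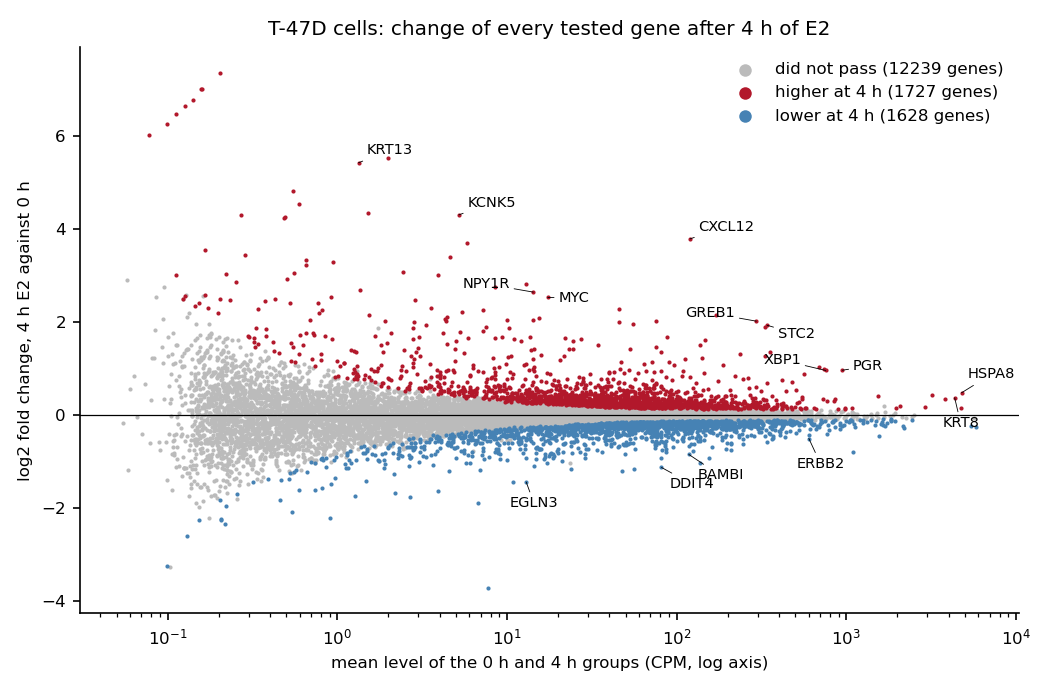
Each point is 1 of the 15594 genes tested, with its mean level over the 0 h and 4 h groups in CPM on a log axis against its log2 fold change at 4 h. The 1727 genes that rose (red) spread further from 0 than most of the 1628 that fell (blue), and the rising line of points at the upper left holds genes without a count at 0 h, 8 of them called, whose fitted fold change depends on the small prior count of the model.

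The largest fold changes belonged to genes that were nearly silent without hormone. KRT13, a keratin of stratified epithelia, had 3 and 2 counts in the 0 h libraries and 152 and 148 in the 4 h libraries. Its CPM ratio was 44.3, with an exact (Clopper-Pearson) 95% interval of 18.8 to 137. Such an interval takes each count as independent and leaves out the spread between replicates, so it may be too narrow. LINC01016, a long noncoding RNA, went from 5 and 2 counts to 215 and 228, a ratio of 46.7 (22.5 to 117). Neither gene had a 0 h library near the 4 h libraries, but genes named by fold were required to have groups that did not overlap. The potassium channel gene KCNK5 rose from 0.652 and 0.340 CPM to 9.12 and 10.7 CPM, a log2 fold change of 4.30 ± 0.19 (SE, n = 2 per group, edgeR adjusted p = 1.40e-11). TGM2, which crosslinks proteins, rose from 0.135 and 0.145 CPM to 3.11 and 2.66 CPM (4.34 ± 0.30). Of signalling genes, PLCL1, a phospholipase C-like protein, and RASGRP1, an activator of RAS, rose by 3.69 and 3.39 on the log2 scale. NKAIN1, which interacts with the sodium pump, and the cytochrome P450 gene CYP2S1 rose by 2.81 and 2.75.

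CXCL12, a chemokine and textbook estrogen target, rose from 18.0 and 14.5 CPM at 0 h to 222 and 226 CPM at 4 h, which is 13.8-fold (log2 3.78 ± 0.07, adjusted p = 4.82e-16). GREB1, a cofactor that binds ERα, rose from 112 and 122 CPM to 457 and 487 CPM, which is 4.04-fold (log2 2.01 ± 0.05). Both 4 h libraries stood above both 0 h libraries in each, which the choice of genes by fold or p required. Of all genes tested, 59.7% had groups that did not overlap. FMN1, a formin that assembles actin filaments, rose by 2.15, STC2, a secreted glycoprotein, by 1.92, THBS1, a matrix glycoprotein, by 1.89, and B4GALT1, a galactosyltransferase, by 1.34 on the log2 scale. KCNH1, a voltage-gated potassium channel, rose by 2.27. In GRCh37, the build the authors aligned to under its name hg19, CXCL12 lies at chr10:44865613-44881941 on the minus strand, GREB1 at chr2:11622467-11782914 on the plus strand and KCNK5 at chr6:39156747-39197251 on the minus strand. The counts are totals per gene, so its transcripts cannot be told apart.

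Among the genes that gained most in CPM were abundant ones with small folds. HSPA8, the constitutive HSP70 chaperone, rose from 3969 and 4020 CPM to 5448 and 5635 CPM, a log2 fold change of 0.47 ± 0.03. The luminal keratins KRT8, KRT18 and KRT19 rose by 0.36, 0.41 and 0.34, and the transferrin receptor TFRC, which imports iron, by 0.43. KRT8 and KRT18 overlap on opposite strands, and since no source used here says that the counting used strand, their reads cannot be told apart where they overlap. Of the genes described below, ERBB2, MYC, RARA, NPY1R, SREBF1 and ESR1 are among those that also overlap an annotated gene on the other strand. The prolactin receptor gene PRLR, already at 4608 and 4421 CPM without hormone, rose by 0.15 to 5055 and 4956 CPM.

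The genes that fell included the following. EGLN3, a prolyl hydroxylase of the hypoxia pathway, fell from 19.2 and 18.8 CPM to 6.87 and 7.07 CPM, a log2 change of -1.45 ± 0.10 (adjusted p = 6.71e-09). The potassium channel gene KCNC1 fell from 14.9 and 16.7 CPM to 5.59 and 5.99 CPM (-1.45 ± 0.11). WNT3, a secreted ligand, fell from 2.07 and 1.84 CPM to 0.576 and 0.597 CPM (-1.74 ± 0.25). The groups did not overlap in any of them, which the choice of genes by fold or p required. The interleukin-1 receptor gene IL1R1 had 185 and 184 CPM at 0 h and 91.9 and 89.1 CPM at 4 h (-1.03 ± 0.04, adjusted p = 1.49e-11). DDIT4, an inhibitor of the growth kinase complex mTORC1, fell by 1.13 and SOX13, a transcription factor, by 0.73. Among the genes that lost most CPM were the actins ACTB and ACTG1 (-0.26 and -0.25), the tight junction protein CLDN1 (-0.46) and the junction proteins JUP and DSP (-0.25 and -0.22).

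Some decreases were less certain. HLA-E was at 10.3 and 11.1 CPM against 2.69 and 3.06 CPM (-1.89 ± 0.40), but its 2 h libraries were at 3.93 and 13.9 CPM. It lies in the major histocompatibility complex (MHC), a region where some genes have similar sequences. Whether that affected its counts was not tested. Another MHC gene, PFDN6, named after its values were seen, had 53 and 1137 counts in the 0 h libraries. AMIGO2 and PCED1B, which overlap on opposite strands, fell by 1.20 and 1.19 and cannot be counted as separate changes. RMRP, the RNA of a ribonuclease, was at 2.09 and 4.03 CPM at 0 h (-1.28 ± 0.44), and did not pass without the second 0 h library (adjusted p = 0.359). CD99, which has copies on the X and Y chromosomes, fell by 1.16 but did not pass with DESeq2 (adjusted p = 0.122).

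**Figure D2:**
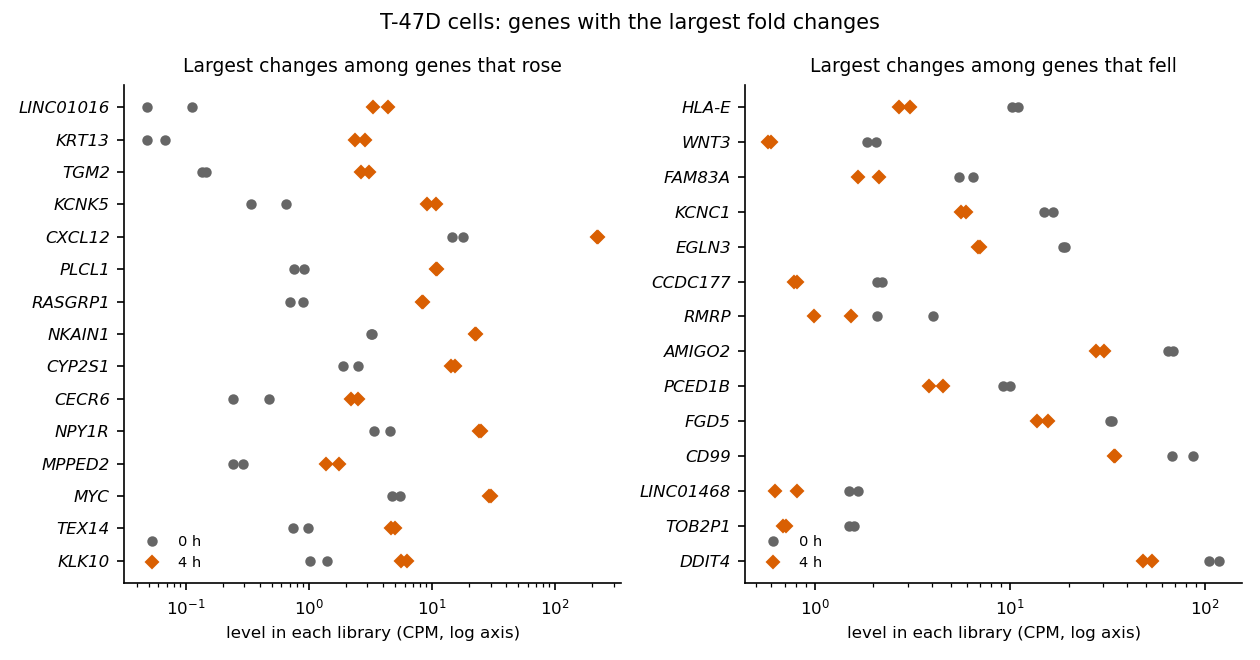
Level in each library, in CPM on a log axis, of the 15 genes that rose and 14 of the 15 that fell with the largest fold changes at 4 h among called genes that averaged 50 counts or more and whose replicates lay within 1 log2 CPM of each other (the 2 libraries at 0 h and the 2 at 4 h have a symbol each). The groups do not overlap for any gene shown, which the choice of genes required.

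Sequences around an estrogen response element are shown for the called members of the gene lists that carry a perfect one near their start, so that the element can be read beside the response. The search was for GGTCANNNTGACC, a palindrome whose half-sites GGTCA and TGACC are 3 bases apart, so that reading 1 strand covers both. In RefSeq promoter windows of 300 bases (GRCh38) it was found in 1 of 11927 tested genes with a window. A wider window, 5000 bases before to 1000 after the gene start in GENCODE on GRCh37, was chosen after that result was seen, and held the element in 84 of 15006 genes (0.560%). The share was 0.762% of the genes that rose (13 of 1706), 0.687% of those that fell (11 of 1602) and 0.513% of those that did not pass (60 of 11698). These shares describe the letters in the windows, and elements with mismatches or further away were not counted. Each stretch runs 5′ to 3′ on the strand of its gene, with the element in capitals.
NRIP1: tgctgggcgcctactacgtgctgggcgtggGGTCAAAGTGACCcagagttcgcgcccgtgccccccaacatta
CELSR2: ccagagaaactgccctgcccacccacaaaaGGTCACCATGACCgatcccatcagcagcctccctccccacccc
E2F1: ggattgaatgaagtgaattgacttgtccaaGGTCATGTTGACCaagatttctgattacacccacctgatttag
BMP4: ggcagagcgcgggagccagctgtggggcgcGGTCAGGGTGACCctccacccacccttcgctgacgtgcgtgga
BMF: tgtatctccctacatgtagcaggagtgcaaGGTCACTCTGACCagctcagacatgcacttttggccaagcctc
TFAP2C: GGTCACCGTGACC

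The NRIP1 stretch is at chr21:16437932-16438004 on the minus strand, in an intron 289 bases after the gene start. Those of CELSR2 (chr1:109789005-109789077, plus strand), E2F1 (chr20:32277414-32277486, minus strand), BMP4 (chr14:54430338-54430410, minus strand) and BMF (chr15:40403054-40403126, minus strand) lie between annotated genes, 3120, 3259, 4895 and 1997 bases before the start. For TFAP2C the element alone is printed, at chr20:55204510-55204522 on the plus strand, because it is in an untranslated exon, 154 bases after the start. These 6 genes differed in direction. NRIP1, a corepressor of liganded receptor, rose from 58.8 and 52.0 CPM to 84.8 and 80.5 CPM, E2F1, a cell cycle transcription factor, from 58.1 and 52.7 CPM to 63.7 and 66.6 CPM, and CELSR2, an adhesion receptor, from 79.4 and 85.4 CPM to 98.5 and 107 CPM. BMP4, a secreted ligand, fell from 39.2 and 38.6 CPM to 26.0 and 25.2 CPM and BMF, which promotes apoptosis, from 40.0 and 38.2 CPM to 31.8 and 31.8 CPM. TFAP2C, a transcription factor that binds with ERα, rose from 84.8 and 83.7 CPM to 102 and 99.9 CPM. CELSR2, E2F1 and BMP4 were named after their values were seen.

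Genes known to respond to estrogen in breast cells had the highest median of the 22 function lists. These lists were chosen with earlier results of these data known, so their ranks are not independent of the data. Of 50 such genes, all tested, 43 rose, 1 fell and 6 did not pass, with a median log2 fold change of 0.95. PGR, the progesterone receptor, rose from 644 and 642 CPM to 1258 and 1240 CPM (0.96 ± 0.04, adjusted p = 5.61e-12). NPY1R, a neuropeptide Y receptor, rose from 3.40 and 4.54 CPM to 25.1 and 24.1 CPM (2.64 ± 0.11), and HSPB8, a small heat shock protein, by 1.30. The replicates of each group were close together in these genes. TFF1, the trefoil factor often used as a marker of the pathway, was scarce in these cells, at 0.743 and 0.582 CPM against 1.98 and 1.52 CPM (1.40 ± 0.30, adjusted p = 0.00227). PEG10, a gene derived from a retroelement, rose by 0.22, a call lost without the second 0 h or the first 4 h library (adjusted p up to 0.094).

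**Figure D3:**
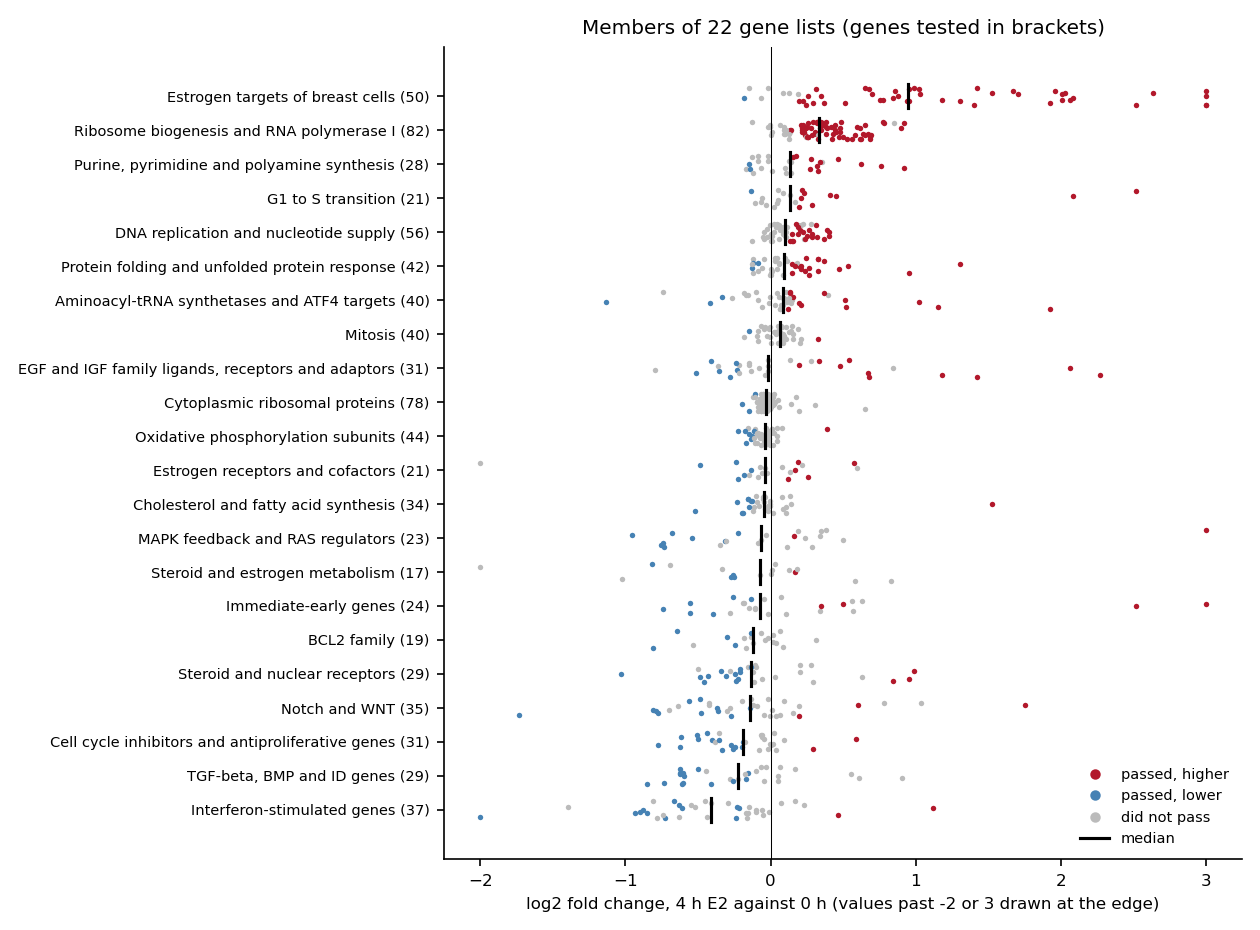
Log2 fold change at 4 h of each tested member of 22 gene lists, 1 point per gene, coloured by whether it passed the test, with the median of each list as a black bar and values below -2 or above 3 drawn at the edge. Estrogen targets (43 of 50 higher) and ribosome biogenesis genes (64 of 82 higher) lie mostly to the right of 0. The TGF-β and BMP genes that passed (14 of 29) all lie to the left. The lists were chosen with earlier results of these data known.

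The receptor and the proteins it works with changed in both directions. Of 21 tested genes of estrogen receptors and cofactors, 5 rose, 5 fell and 11 did not pass, with a median of -0.04. The share called was 23.8% each way, above the 11.1% and 10.4% of all genes. Called or not, members ran from -3.27 to 0.59 on the log2 scale. Without the second 4 h library 2 rose, and without the first 2 fell. ESR1 itself rose by 0.19 ± 0.04, but did not pass without the second 4 h library. NRIP1 and TFAP2C rose by 0.58 and 0.26, whereas the corepressor TLE3 fell by 0.48 and the coactivator NCOA3 by 0.24. The pioneer factor FOXA1 was at 420 and 403 CPM at 0 h and 378 and 371 CPM at 4 h (-0.14 ± 0.05, adjusted p = 0.0386), and this call was lost when any of 5 libraries was left out. GATA3, another luminal transcription factor, did not pass, at 1165 and 1204 CPM against 1108 and 1127 CPM (-0.08, 95% interval -0.16 to -0.01).

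Among the other steroid and nuclear receptors and their chaperones more fell than rose. Of 29 tested, 3 rose and 12 fell, with a median of -0.14. The retinoic acid receptor gene RARA rose from 73.5 and 81.0 CPM to 135 and 143 CPM (0.84 ± 0.06), and FKBP4, a cochaperone of steroid receptors, from 496 and 487 CPM to 961 and 987 CPM (0.99 ± 0.03). RXRA, the shared partner of many of these receptors, fell from 269 and 278 CPM to 191 and 199 CPM (-0.49 ± 0.04), and the orphan receptor NR2F1 from 23.8 and 22.5 CPM to 11.1 and 11.6 CPM (-1.03 ± 0.09). RARG, which binds the same ligand as RARA, fell by 0.43. Without the second 0 h library 7 receptors fell, and 5 without the second 4 h library. Of 17 tested enzymes of steroid and estrogen metabolism 1 rose and 4 fell (2 without the first 4 h library), and 0 rose without the second 0 h, the first 4 h or either 2 h library. CYP1A1, which oxidises E2, fell from 6.03 and 8.12 CPM to 4.06 and 3.97 CPM (-0.81 ± 0.15).

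Growth factor signalling changed on both sides of the membrane. Of 31 tested genes of EGF and IGF family ligands, receptors and adaptors, 10 rose and 6 fell. The ligand TGFA rose from 13.1 and 11.9 CPM to 28.0 and 28.9 CPM (1.18 ± 0.08, adjusted p = 2.57e-09). IGFBP4, which binds insulin-like growth factors, rose by 0.68. Among receptors, the tyrosine kinase gene RET rose from 1.69 and 1.65 CPM to 7.11 and 6.88 CPM (2.07 ± 0.18). ERBB2 fell from 700 and 713 CPM to 494 and 497 CPM (-0.51 ± 0.04, adjusted p = 8.79e-09), and ERBB3 from 869 and 884 CPM to 651 and 668 CPM (-0.41 ± 0.04). The gene of the EGF receptor itself, EGFR, did not pass (-0.02), with a mean of 37.5 CPM at 0 h and 36.9 CPM at 4 h. Thus a ligand of the EGF receptor rose where that receptor did not pass and 2 others of its family fell. AREG, another such ligand, the insulin receptor substrate IRS1 and the receptor IGF1R, named after their values were seen, rose by 1.42, 0.48 and 0.34. FGFR3 did not pass (-0.15, 95% interval -0.27 to -0.04).

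Genes of MAP kinase feedback fell more often than they rose. Of 23 tested MAPK feedback and RAS regulators, 2 rose and 8 fell, with a median of -0.07. Those that rose were RASGRP1 and SOS1, both activators of RAS (3.39 and 0.16, the latter lost with a library left out). The dual-specificity phosphatases DUSP8, DUSP10 and DUSP5 fell by 0.76, 0.96 and 0.74, and SPRED2, an inhibitor of RAF activation, by 0.54. Of 24 tested immediate-early genes, 4 rose and 6 fell. MYC, a transcription factor of growth, rose from 5.56 and 4.73 CPM to 29.0 and 30.2 CPM (2.52 ± 0.11, adjusted p = 1.19e-11), KLF10 by 0.50 and FOSL2 by 0.34. EGR3, a zinc finger transcription factor, was counted 2 and 2 times without hormone against 25 and 21 times with it, a ratio of 8.48 (3.10 to 32.5). The AP-1 subunits JUN, JUNB and JUND fell by 0.55, 0.74 and 0.26.

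**Figure D4:**
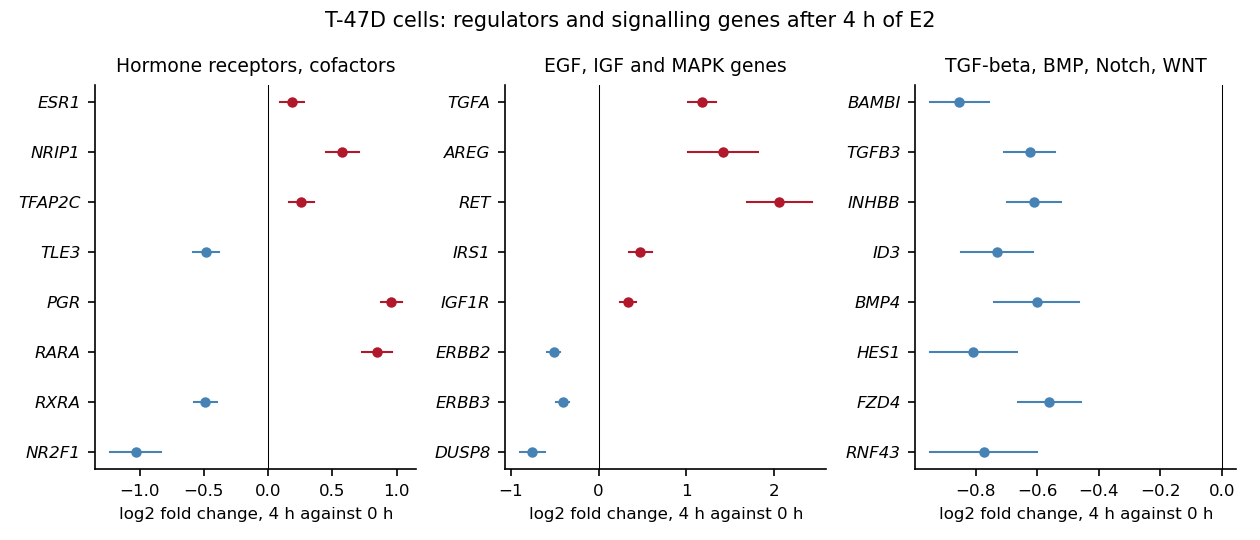
Log2 fold change at 4 h against 0 h (points) with its 95% interval from the fit (lines) for 24 genes of receptors, growth factor signalling and developmental pathways, red where a gene rose and blue where it fell. PGR and RARA lie to the right of 0 where RXRA and NR2F1 lie to the left, and the 8 TGF-β, BMP, Notch and WNT genes shown lie to the left. The genes shown were chosen after their values were seen. The 3 tested Notch and WNT genes that rose, among them HEY2 and ZNRF3, are not shown.

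No TGF-β, BMP or ID gene passed upward. Of 29 tested, 14 fell and 15 did not pass, with a median of -0.23. The ligand TGFB3 fell from 299 and 296 CPM to 193 and 193 CPM (-0.62 ± 0.04), and INHBB, a subunit of inhibin and activin, by 0.61. BAMBI, a decoy receptor, fell from 154 and 150 CPM to 85.0 and 83.0 CPM (-0.85 ± 0.05, adjusted p = 2.19e-10). ID3, an inhibitor of differentiation and classical BMP target, fell by 0.73. The receptor TGFBR1 did not pass, at 147 and 140 CPM against 141 and 134 CPM. Of 35 tested Notch and WNT genes, 3 rose and 11 fell (7 without the second 4 h library, and 5 rose without the first 0 h library). The Notch target HES1 fell from 44.0 and 47.8 CPM to 25.5 and 27.0 CPM (-0.81 ± 0.07) while HEY2, of the same family, rose from 2.16 and 1.65 CPM to 7.19 and 5.68 CPM (1.76 ± 0.18). RNF43 and ZNRF3, related ubiquitin ligases that remove WNT receptors, also went in opposite directions, with log2 fold changes of -0.77 ± 0.08 and 0.60 ± 0.10. The WNT receptor FZD4 fell by 0.56.

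Of 31 tested cell cycle inhibitors and antiproliferative genes, 14 fell, 2 rose and 15 did not pass, with a median of -0.19. HEXIM1, an inhibitor of the elongation factor P-TEFb, fell from 247 and 258 CPM to 164 and 162 CPM (-0.63 ± 0.04, adjusted p = 9.41e-09). CDKN2B, which encodes the CDK inhibitor p15, fell from 98.2 and 110 CPM to 66.8 and 68.7 CPM (-0.62 ± 0.06), BTG1 by 0.50 and CCNG2 by 0.40. The exceptions were TOB1, which rose from 235 and 231 CPM to 355 and 346 CPM (0.59 ± 0.04), and PDCD4, an inhibitor of translation (0.29). Of 21 tested genes of the G1 to S transition 9 rose and 1 fell, with 5 that rose without the second 0 h library and 4 without the first 4 h library. The transcription factor MYB rose from 6.50 and 5.24 CPM to 25.4 and 24.5 CPM (2.08 ± 0.09), and the phosphatase gene CDC25A by 0.45. CDK2 did not pass (0.04, 95% interval -0.06 to 0.14).

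Of 56 DNA replication and nucleotide supply genes, all tested, 20 rose, 0 fell and 36 did not pass, with a list median of 0.10 and a highest value of 0.40. CDC6, a licensing factor, rose from 57.4 and 52.1 CPM to 73.7 and 71.3 CPM (0.40 ± 0.06, adjusted p = 3.44e-05), MCM10 by 0.37, the histone mRNA binding protein SLBP by 0.32 and MCM6, a subunit of the replicative helicase, by 0.25. RRM2, a subunit of ribonucleotide reductase, did not pass (0.07, 95% interval -0.04 to 0.17). The 20 became 6 without the second 0 h library, 7 and 11 without the first and the second 4 h library, and 8 at an adjusted p under 0.01. Of 40 mitotic genes, MAD2L1 of the spindle checkpoint rose (0.33) and the phosphatase CDC25B fell (-0.15), both lost with a library left out, while 6 rose without the first 0 h library and 4 with DESeq2. TOP2A, the topoisomerase of dividing cells, did not pass, at 592 and 564 CPM against 607 and 609 CPM (0.07, 95% interval -0.02 to 0.17, adjusted p = 0.280).

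The genes that build ribosomes rose in large number. Of 82 ribosome biogenesis and RNA polymerase I genes, 64 rose, 0 fell and 18 did not pass, with a median of 0.33. The nucleolar RNA helicase genes DDX21 and DDX10 rose from 189 and 175 CPM to 320 and 305 CPM (0.78 ± 0.05) and from 39.7 and 42.8 CPM to 77.3 and 76.2 CPM (0.90 ± 0.05). RRS1, which helps to assemble the large subunit, rose by 0.92 and NOP56, a core protein of box C/D particles, by 0.69. UBTF, the RNA polymerase I factor, did not pass (-0.13, 95% interval -0.23 to -0.03). The proteins of the ribosome itself showed another picture. Of 78 tested cytoplasmic ribosomal protein genes, 0 rose and 3 fell (RPL29, RPLP1 and RPS20, by 0.19, 0.15 and 0.10), with a median of -0.03, and RPL4 was at 1113 and 1098 CPM against 1128 and 1104 CPM. Without the first 0 h library 0 of them fell. Over all genes tested, 5153 passed at an unadjusted p under 0.05.

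Genes that supply nucleotides, polyamines and amino acids moved in part. Of 28 genes of purine, pyrimidine and polyamine synthesis 11 rose and 2 fell, with 0 that fell when any of the 4 compared libraries was left out. AMD1, which makes the aminopropyl donor of polyamine synthesis, rose from 51.5 and 49.5 CPM to 99.5 and 92.0 CPM (0.92 ± 0.05, adjusted p = 6.24e-10), and PPAT, the first enzyme of purine synthesis, by 0.76. Of 40 aminoacyl-tRNA synthetases and targets of the stress factor ATF4, 12 rose and 3 fell, with 7 that rose without the second 0 h library and 6 without the first 4 h library. Members that rose included amino acid transporters. SLC7A5, the light chain of a neutral amino acid exchanger, rose from 446 and 468 CPM to 906 and 953 CPM (1.02 ± 0.04), its heavy chain SLC3A2 by 0.52 and the arginine transporter SLC7A1 by 0.52. The amino acid transporters SLC38A1 and SLC38A2 did not pass (0.07 and 0.04). DDIT4 had the lowest value of the list (-1.13), and TRIB3 and SESN2 were lower at 4 h too (-0.42 and -0.33). The alanyl-tRNA synthetase AARS did not pass (0.06, 95% interval -0.02 to 0.15).

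Of 42 protein folding and unfolded protein response genes 18 rose and 3 fell. XBP1, a transcription factor of that response and a known estrogen target, rose from 557 and 471 CPM to 1009 and 982 CPM (0.95 ± 0.05), and the cochaperone HSPH1 by 0.53. HSPA5, the main chaperone of the endoplasmic reticulum, did not pass, at 1700 and 1622 CPM against 1752 and 1707 CPM (0.06, 95% interval -0.01 to 0.12). The members that fell, P4HB, PDIA4 and CALR, all of the endoplasmic reticulum, did so by 0.13, 0.12 and 0.09. Each of these calls was lost without the first 4 h library. Those of PDIA4 and CALR were also lost without any other single library at 0, 2 or 4 h. CALR also did not pass with DESeq2, with RLE scaling, with no filter or with at least 10 counts in every library. Nor did it pass at an adjusted p under 0.01, with only the compared time points or with counts divided by 2. PDIA4 did not pass with no filter or at an adjusted p under 0.01.

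Of 34 tested cholesterol and fatty acid synthesis genes 9 fell and 1 rose. SREBF1, a regulator of fatty acid synthesis, fell from 291 and 285 CPM to 199 and 203 CPM (-0.52 ± 0.05), and ELOVL2, which lengthens polyunsaturated fatty acids, rose by 1.52. The desaturase SCD did not pass (-0.04, 95% interval -0.10 to 0.02). The 9 became 3 without the second 0 h library, 2 without the first 4 h library and 4 without either 2 h library. Of 19 tested BCL2 family genes 5 fell and 0 rose, with 2 that fell without the first 0 h library and 3 without either 4 h library. Both the survival gene BCL2L1 (-0.25) and the death promoters BMF (-0.30) and BBC3 (-0.64) were among them, BBC3 only with the first 0 h and the first 4 h library in the fit. Of 44 respiratory chain genes 7 fell, with a lowest value of -0.22, and cytochrome c (CYCS) rose by 0.39. Without either 4 h library 0 of the respiratory genes fell, and 1 without either 0 h library.

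Interferon-stimulated genes had the lowest median of the 22 function lists (-0.41) and were uneven between control replicates. Of 37 tested 12 fell and 2 rose. The antiviral synthetase OAS2 was at 25.9 and 32.5 CPM at 0 h and 18.4 and 18.3 CPM at 4 h (-0.67 ± 0.13, adjusted p = 0.00118). MX1, an antiviral GTPase named after its values were seen, was at 27.3 and 45.4 CPM against 20.2 and 23.7 CPM. In both the second 0 h library was the higher control. Fewer members fell without that library or without the first 4 h library, and more fell without the first 0 h library. With DESeq2 8 members fell, and 4 at an adjusted p under 0.01. The ubiquitin-like ligase genes HERC5 and HERC6 rose (1.12 ± 0.18 and 0.47 ± 0.10), and STAT2 did not pass (-0.16, 95% interval -0.29 to -0.03).

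To place 4 h within the time course, 4 h was tested directly against 2 h and 8 h against 4 h in the same fit. Between 2 and 4 h, 303 genes rose (1.94%) and 227 fell (1.46%), and between 4 and 8 h, 326 rose (2.09%) and 207 fell (1.33%). The count from 2 to 4 h depended on the fit, with 1264 genes in place of 530 when these time points were fitted alone. Both tests share the 4 h libraries with each other and with the comparison above, so their calls are not independent. Several leading genes rose further between 2 and 4 h. KCNH1 was at 28.6 and 30.7 CPM at 2 h and 74.0 and 78.0 CPM at 4 h (1.36 ± 0.06, adjusted p = 3.34e-10), and did not pass from 4 to 8 h (-0.04). CXCL12 rose by 0.67 from 2 to 4 h and by 0.48 from 4 to 8 h. PGR, MYC, STC2 and TGFA did not pass from 2 to 4 h, at 0.09, 0.02, 0.07 and -0.09.

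Other genes were lower at 4 h than at 2 h while still above 0 h. KCNK5 was at 15.3 and 14.8 CPM at 2 h and 9.12 and 10.7 CPM at 4 h (-0.60 ± 0.12), XBP1 at 1219 and 1255 CPM and then 1009 and 982 CPM (-0.31 ± 0.05), and TFAP2C, NRIP1 and RARA fell by 0.33, 0.26 and 0.32. FOXA1 took the reverse course, at 289 and 309 CPM at 2 h and 378 and 371 CPM at 4 h (0.32 ± 0.05, adjusted p = 3.38e-04). ELF3, an epithelial transcription factor, stayed near its starting level at first, with 62.1 and 65.2 CPM at 0 h and 60.1 and 63.0 CPM at 2 h, and then fell to 34.6 and 36.4 CPM (-0.79 ± 0.06 from 2 to 4 h). ERBB2 fell by 0.31 from 2 to 4 h and by 0.45 from 4 to 8 h. OSGIN1, an oxidative stress response gene, KCNQ5, a potassium channel, and PRKCE, a protein kinase C, were named after their values were seen. OSGIN1 started from 37.5 and 35.1 CPM, reached 104 and 105 CPM at 2 h and was back to 44.8 and 47.8 CPM by 4 h (-1.18 ± 0.05 from 2 to 4 h). KCNQ5 and PRKCE rose by 2.13 and 1.58 from 2 to 4 h.

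The gene groups had their calls at different steps. Ribosome biogenesis had 24 of 82 genes that rose from 2 to 4 h and 11 from 4 to 8 h, and its medians against 0 h were 0.17, 0.33 and 0.43 at the successive hours. DNA replication had 8 of 56 that rose from 2 to 4 h and 27 from 4 to 8 h, with medians against 0 h of -0.01, 0.10 and 0.36. CDC6 rose in both steps (0.27 and 0.30), and so did MCM6 (0.23 and 0.38). Of the cytoplasmic ribosomal proteins 0 rose from 2 to 4 h and 17 of 78 from 4 to 8 h. The difference between the steps was not tested for any list.

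**Figure D5:**
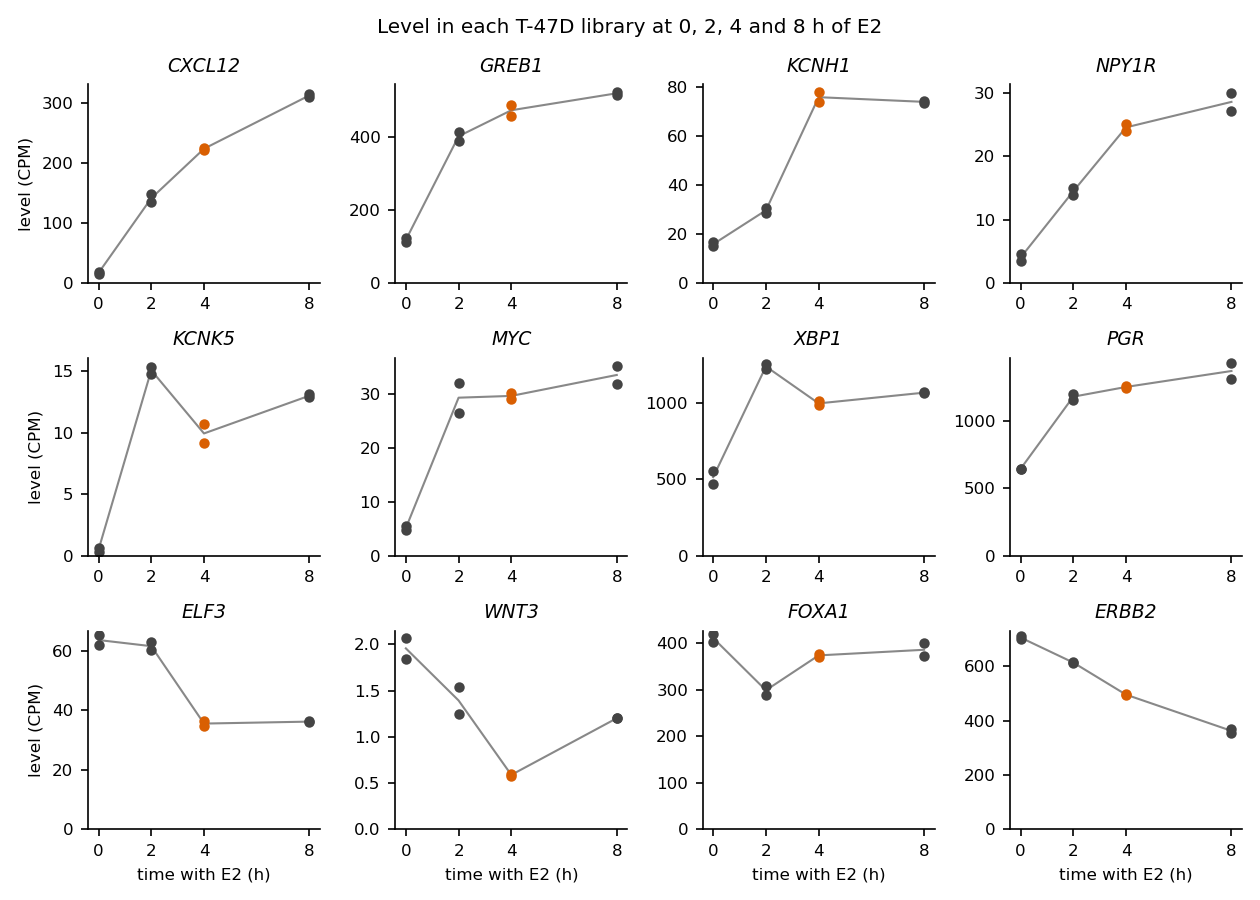
Level in CPM (linear axis from 0) in each of the 8 T-47D libraries, at each of the 4 sampled hours of E2, for 12 genes, with the 4 h libraries in orange and a line through the mean of each hour. KCNH1 made most of its rise between 2 and 4 h, KCNK5 and XBP1 were highest at 2 h, FOXA1 was lowest at 2 h, and ELF3 changed after 2 h.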

How the data were processed

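Poly(A) RNA of T-47D cells was sequenced as directional libraries. Per the labels and the study's methods, HISAT2 alignment to hg19, SAMtools and featureCounts on UCSC genes were the authors' route to the counts, and versions, strand setting and multi-mapping rules are not given in the sources used here. The deposited values are raw counts for 26364 genes. Even numbers made up 71.2% to 74.6% of counts from 1 to 10, so a count need not be 1 independent fragment. The exact (Clopper-Pearson) intervals take each count as independent, so they may be too narrow even for counting error. They also leave out the spread between replicates. No column of other samples was used.

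Libraries were grouped by the labels. With edgeR 4.0.16 in R 4.3.3, filterByExpr kept 15594 genes, libraries were scaled by TMM, and all 8 T-47D libraries were fitted with time as a factor, with quasi-likelihood tests and Benjamini-Hochberg adjustment at 0.05. The biological coefficient of variation was 5.02%. Standard errors were obtained as |log2 fold change|/√F. DESeq2 1.42.0 was an alternative. The script was tested on simulated data in which 200 genes changed by 1 on the log2 scale. At an adjusted p under 0.05 it recovered 76% of them, and 8.43% of its calls were false.

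Gene positions (GENCODE, GRCh37) were found for 90.4% of symbols, 1351 of them through older RefSeq symbols. The genes compared, the 22 function lists, the 5 marker lists and the naming rule were chosen with earlier results of these data known. The rule took called genes with a mean of at least 50 counts, groups that did not overlap and replicates within 1 log2 CPM, by fold (15 each way), p (10) and CPM difference (10), up to 4 called members each way and 3 uncalled members of each list, and genes the study names, of which IL1RN was not among the genes tested. Of the 68 genes named by fold, p or level, 3 had no position and are not named. Some genes the rule selected are not reported here.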

Additional observations from a re-analysis of the deposited data

Results flagged for a closer look

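Results are given here where the level at 4 h differed from that at 2 h or 8 h by a direct test of the difference (edgeR, adjusted p under 0.05 over all genes). Only the counts and the genes named for their fold, p or by the study were examined. No group had the 4 libraries that an outlier test needs. In all, 530 genes differed between 4 h and 2 h and 533 between 8 h and 4 h.

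From 2 to 4 h, the following rose, given as log2 differences: KCNH1 by 1.36, PLCL1 by 0.87, KRT13 by 0.82, NPY1R by 0.76, NKAIN1 by 0.74, KLK10 by 0.73, CXCL12 by 0.67, FMN1 by 0.51, CYP2S1 by 0.43, HSPB8 by 0.30, AMZ1 by 0.24, GREB1 by 0.24, PEG10 by 0.24 and B4GALT1 by 0.19. KCNK5 (-0.60) and RASGRP1 (-0.47) were lower at 4 h than at 2 h while both stayed above 0 h.

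The genes below their 0 h level that were lower at 4 h than at 2 h were HLA-E (-1.62), WNT3 (-1.25), FAM83A (-1.002), KCNC1 (-0.83), ELF3 (-0.79), FGD5 (-0.66), EGLN3 (-0.46), ZNF704 (-0.44), AMIGO2 (-0.26), TGFB3 (-0.25) and IL1R1 (-0.17). The 2 h libraries of HLA-E were at 3.93 and 13.9 CPM, so its difference rests on replicates that lie far apart.

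From 4 to 8 h, WNT3 (1.03), CXCL12 (0.48), NKAIN1 (0.43), STC2 (0.42) and PEG10 (0.21) rose, and TGM2 (-0.78), DDIT4 (-0.33), FMN1 (-0.23) and TGFB3 (-0.15) fell. WNT3 and FMN1 thus reversed direction after 4 h.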

How the results depend on the processing

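The 3355 genes called at 4 h became 3153 with DESeq2, 3357 with RLE scaling, 3734 with no filter, 3377 with at least 10 counts in every library, 4339 at an adjusted p under 0.1, 3274 with only these time points and 3435 with counts divided by 2. At an adjusted p under 0.01 they were 1991, with 1067 up and 924 down. With 1 library left out the totals ran from 1821 to 3853, from 1034 to 2075 up and from 787 to 1780 down. Fewer samples then remain. Without the first 4 h library 1821 were called (1034 up, 787 down), without the second 0 h library 2166 (1003 down), and without the second 4 h library 1024 down. Of the 3355 genes, 53.2% and 60.4% were called again without the first 4 h and the second 0 h library, and 91.5% with DESeq2.

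From 2 to 4 h, 530 became 830 with no filter, 268 at 0.01, 821 at 0.1 and 1264 with only those time points, and 198 to 695 with a library left out (220, 198, 255 and 232 without each compared library). From 4 to 8 h, 533 became 914, 204 and 943 under the first 3 of these, and 170 to 686 with a library left out (190 and 170 without the first and second 4 h library). Apart from thresholds and smaller fits, the cause was not tested.

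The replicate numbers showed no pairing, since same-numbered libraries deviated from their group means with correlations of -0.0547 to 0.0596. With the replicate block 3166 genes were called, 93.2% of the 3355 among them, and 474 and 477 in the steps to and from 4 h.

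No named gene that was called reversed under any alternative. Among uncalled genes the rule selected, 57 values near 0 changed sign without passing. No scaling moved the median of all genes by over 0.1.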
